A study of Mus musculus with 8 samples.

Results

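The plasma levels of 3 microRNAs, mmu-miR-192-5p, mmu-miR-194-5p and mmu-miR-215-5p, are described here in mice given doxorubicin or imatinib. They were taken by name from the 1881 mouse miRNAs that the array measured, with earlier results of these data known. Doxorubicin (DOX) is an anthracycline that damages DNA, and imatinib (IMB) is an inhibitor of tyrosine kinases. All animals were female NMRI mice, an outbred stock, aged 3 months and carrying no transgene that the labels name. The DOX groups received 3 mg/kg into the tail vein in 4 doses on alternate days, dissolved in saline. The IMB groups received 100 mg/kg daily by mouth in distilled water for 9 days, and the control groups (CTRL) received the vehicles alone. Blood was taken on the day after the last dose, and RNA from 300 µl of plasma was labelled with Cy3. Each array held the plasma RNA of a pool of 3 mice, with 3 DOX pools, 3 IMB pools and 2 CTRL pools. The labels call the pools biological replicates, and the spread between individual mice was not measured. The comparisons the design implies are each drug against its vehicles and imatinib against doxorubicin.

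MicroRNAs are short RNAs that, bound to Argonaute proteins, pair with messenger RNAs mainly through the seed near their 5′ end and lower the output of the paired messages. The miR-192 and miR-194 families are abundant in intestinal epithelium, liver and kidney, and they are transcribed as linked pairs. The tumour suppressor p53 is known to raise their transcription in human cells. In plasma, miRNAs are carried by vesicles and protein complexes, and blood cells, liver and other tissues release them. Whether more cells released a miRNA or each cell released more of it cannot be told apart in such samples.

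The mature sequences are shown because they decide which members share targets and which probes could bind more than 1 member. They come from RefSeq (mouse build GRCm38.p6), where all 3 members matched by name, and each is written 5′ to 3′ with the seed, bases 2 to 8, in capitals.
mmu-miR-192-5p: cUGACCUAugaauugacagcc
mmu-miR-215-5p: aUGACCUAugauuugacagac
mmu-miR-194-5p: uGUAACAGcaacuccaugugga
miR-192-5p and miR-215-5p have the same seed. They are identical at 18 of 21 positions and differ by C1A, A12U and C20A, counted from the 5′ end with the base of miR-192-5p first. miR-194-5p has a seed of its own, and no other mature mouse miRNA in the RefSeq table carries either seed. Given 3 differences in 21 bases, a probe for miR-192-5p could also bind miR-215-5p, and the reverse. That was not tested, and the probe sequences were not used here.

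The members come from a pair of clusters on the plus strand of GRCm38.p6. On chromosome 19, miR-192-5p lies at chr19:6264857-6264877 and one copy of miR-194-5p, from the gene Mir194-2, at chr19:6264658-6264679. The hairpins of Mir194-2 and Mir192 are 115 bases apart, and no other RefSeq gene overlaps them. On chromosome 1, miR-215-5p lies at chr1:185313610-185313630 and the other copy of miR-194-5p, from Mir194-1, at chr1:185313325-185313346. These hairpins are 195 bases apart and lie within the span of Iars2, which encodes the mitochondrial isoleucyl-tRNA synthetase. Both copies of miR-194-5p give an identical mature sequence, so the array could not assign its signal to either cluster.

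The opposite hairpin arms are the strands that are usually degraded when the mature arm is loaded. They are shown because they differ between the Mir194 copies while the mature arm does not.
mmu-miR-194-1-3p: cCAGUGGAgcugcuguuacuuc
mmu-miR-194-2-3p: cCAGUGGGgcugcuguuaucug
mmu-miR-192-3p: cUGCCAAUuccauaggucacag
mmu-miR-215-3p: uCUGUCAUucuguaggccaau
The miR-194 arms are identical at 18 of 22 positions and differ by A8G, C19U, U20C and C22G, with the base of miR-194-1-3p first, so their seeds differ in the last base. All 4 opposite arms were on the array. Their probes had 0% of spots well above background on each of the 8 arrays, so no level is given for them and the arms could not show which Mir194 copy supplied the plasma signal.

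Over the whole series, 245 mouse miRNAs were detected on all 8 arrays and 357 on 1 or more, and 294 were tested. Before scaling, the 75th percentile of the probes detected on all arrays ran from 195.8 to 425.4, and 258 to 339 miRNAs were detected per array. Pairs of arrays correlated at 0.953 to 0.991 across miRNAs, and all 8 lay on 1 slide. With 8 arrays in all, their number sets the precision. Plasma has no miRNA of its own by which to check the label. The red cell miRNA miR-451a and the hepatocyte miRNA miR-122-5p were detected on all 8 arrays. Values below, unless stated otherwise, are log2 signals brought to a common 75th percentile on every array, with a floor at 4.39.

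All 3 members were detected in all 8 pools, and none of them passed the test in any comparison. miR-192-5p and miR-215-5p stood far above the floor, by at least 4.27 and 3.45 log2 units. miR-194-5p was close to it, with its lowest pool 0.11 above. Over all pools the scaled signal ran from 403 to 665 for miR-192-5p, from 22.6 to 54.5 for miR-194-5p and from 228 to 381 for miR-215-5p. These spans are 1.65-fold, 2.41-fold and 1.67-fold. Because probes differ in brightness, signals of different miRNAs are not ranked against each other.

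Each member had a pair of probes with 12 to 15 usable spots per array. The probes of miR-192-5p ran from 270 to 470 and from 536 to 880 in scaled signal, and those of miR-215-5p from 81.6 to 139 and from 368 to 623. All of their spots were well above background, and the spots of a probe varied by 3.6% to 8.2% (coefficient of variation). For miR-194-5p the brighter probe, A_54_P1151, read 41.0, 63.4 and 74.1 after DOX, 79.2, 58.4 and 64.1 after IMB, and 30.7 and 45.9 in CTRL. It was detected on all 8 arrays. The dimmer probe, A_54_P1152, read 17.9, 26.7 and 32.6 in DOX, 29.8, 26.5 and 30.1 in IMB, and 14.6 and 20.6 in CTRL. It was detected on 6 of 8 arrays, all but DOX pool 1 and CTRL pool 1, and its spots varied by up to 30.8%.

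**Figure D1:**
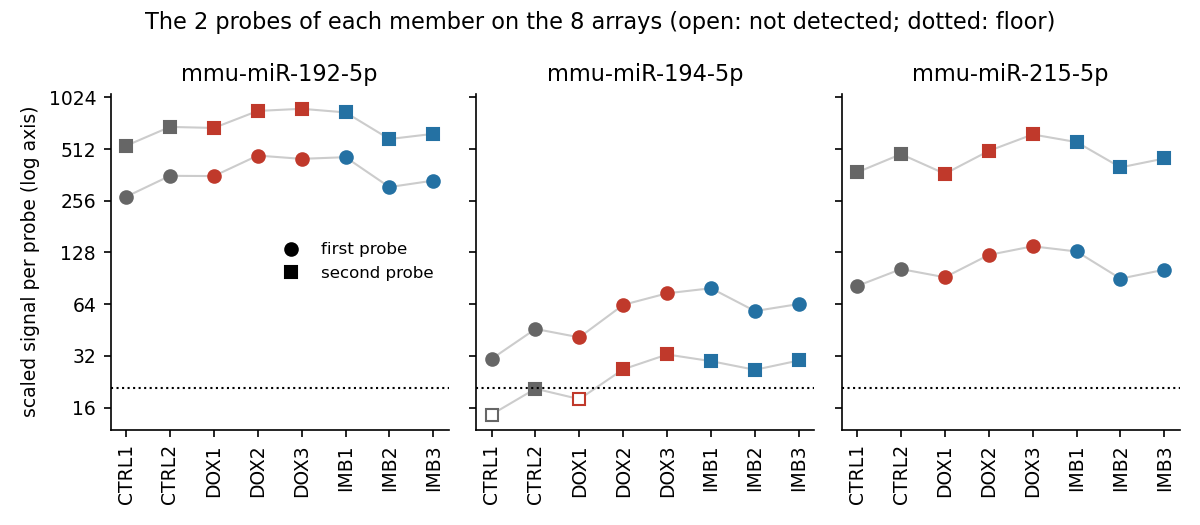
Scaled signal (log axis) of the 2 probes of each member on the 8 arrays, coloured by group, with filled symbols where the probe was detected and a dotted line at the floor. The probes of miR-192-5p and miR-215-5p stay far above the floor of 20.9, while the dimmer miR-194-5p probe crosses it and is undetected in CTRL pool 1 and DOX pool 1.

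Agilent's own error of the summed signal per miRNA gave the same order of reliability. It was 7.39% to 7.48% of the signal for miR-192-5p, 8.34% to 8.51% for miR-215-5p and 8.79% to 14.7% for miR-194-5p. A difference in miR-194-5p therefore rests on signals nearer to background than one in the other members.

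After doxorubicin the mean of each member was higher than in controls, by less than the test could separate from the spread between pools. Without scaling between arrays the difference turned to -0.010 for miR-192-5p and -0.20 for miR-215-5p, and with a red cell index (miR-451a minus miR-23a-3p) in the fit to -0.0029 and -0.26. miR-192-5p, which shares its seed with miR-215-5p, read 9.02, 9.37 and 9.38 in DOX pools 1 to 3 and 8.65 and 9.03 in CTRL pools 1 and 2. The DOX pools 2 and 3 lay above both controls, DOX pool 1 lay just under CTRL pool 2, and so the groups overlapped. The means were 9.26 ± 0.21 (SD, n = 3) for DOX and 8.84 ± 0.27 (SD, n = 2) for CTRL. The difference was 0.41 (SE 0.22), a 1.33-fold ratio with a 95% interval of 0.914 to 1.94 (limma adjusted p = 0.71).

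miR-215-5p, from the chromosome 1 cluster, read 7.84, 8.28 and 8.57 in DOX and 7.84 and 8.18 in CTRL. The lowest DOX pool was level with the lowest control, and the groups overlapped. The means were 8.23 ± 0.37 (SD, n = 3) and 8.01 ± 0.25 (SD, n = 2), a difference of 0.23 (SE 0.26, 95% interval -0.42 to 0.88, limma adjusted p = 0.93).

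miR-194-5p, which both clusters encode, read 4.88, 5.49 and 5.74 in DOX and 4.50 and 5.06 in CTRL. DOX pool 1 fell between the controls, and the other DOX pools lay above both. The means were 5.37 ± 0.44 (SD, n = 3) and 4.78 ± 0.39 (SD, n = 2). The difference of 0.59 (SE 0.30) corresponds to 1.51-fold, with a 95% interval on the log2 scale from -0.16 to 1.34 (limma adjusted p = 0.70).

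Thus 0 of 3 members passed the threshold for doxorubicin, where 1 of 294 tested miRNAs did (0.340%), by limma with an adjusted p under 0.05. At an unadjusted p under 0.05 there were 25 tested miRNAs and no member. Nor did any member have all DOX pools above both CTRL pools, which 18.7% of tested miRNAs had. Exact permutation tests of the single members gave p = 0.3 for miR-192-5p, 0.3 for miR-194-5p and 0.4 for miR-215-5p (2-sided). With 3 pools against 2 such a test cannot go below 0.1.

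After imatinib, miR-194-5p was the member that stood apart from the controls. It read 5.77, 5.41 and 5.56 in IMB pools 1 to 3, against 4.50 and 5.06 in CTRL. Every IMB pool lay above both controls, and the lowest IMB pool was 0.35 above the higher control. The means were 5.58 ± 0.18 (SD, n = 3) and 4.78 ± 0.39 (SD, n = 2). The difference of 0.80 (SE 0.30, 95% interval 0.05 to 1.55) corresponds to 1.74-fold. Its unadjusted limma p was 0.040, ranked 19 of 294, and its limma adjusted p was 0.59, so it did not pass. The exact permutation p was 0.1, the smallest possible.

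That value depends on how low signals are treated. It was 0.19 with the floor set 2 times higher and 0.36 with a model-based background correction (normexp), against 0.80. Both settings compress low signals by construction, so these values do not test the difference. The higher floor lay above both CTRL pools, at 22.6 and 33.2 in scaled signal. Normexp added an offset of 50, where the unscaled signal of miR-194-5p ran from 22.3 to 64.2. The brighter probe alone gave 0.83 and the dimmer 0.46. Both CTRL readings of the dimmer probe, 14.6 and 20.6, were raised to the floor of 20.9, which compresses its value too. Leaving out CTRL pool 1, the lowest of all pools, gave 0.52, with the remaining control assumed to vary as the other groups do. For doxorubicin the same higher floor gave 0.15, normexp 0.40 and leaving out CTRL pool 1 0.32, against 0.59.

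The other members were little above controls after imatinib. miR-192-5p read 9.34, 8.80 and 8.91 in IMB, so that IMB pool 1 lay above both controls and the others between them. Its mean of 9.02 ± 0.28 (SD, n = 3) differed from CTRL by 0.18 (SE 0.22, 95% interval -0.37 to 0.72, limma adjusted p = 0.92, exact permutation p = 0.6). miR-215-5p read 8.44, 7.94 and 8.11 in IMB and again only pool 1 lay above both controls. Its mean of 8.16 ± 0.25 (SD, n = 3) differed from CTRL by 0.15 (SE 0.26, 95% interval -0.50 to 0.80, limma adjusted p = 0.97, exact permutation p = 0.5).

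For imatinib, 0 of 3 members passed the limma threshold, where 3 of 294 tested miRNAs did (1.02%). At an unadjusted p under 0.05 there were 23 tested miRNAs, miR-194-5p among them. All 3 IMB pools above both controls was seen for 1 of 3 members and for 10.9% of tested miRNAs.

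**Figure D2:**
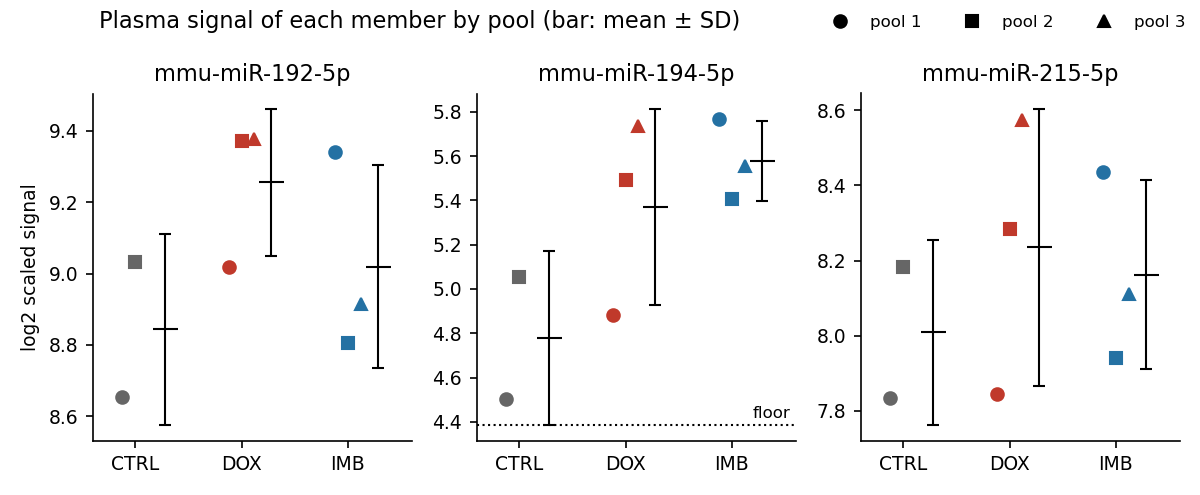
Log2 scaled signal of each member (vertical axis, its own range in each panel) in the 2 CTRL, 3 DOX and 3 IMB pools, with the group mean ± SD as a bar and the floor as a dotted line. The only pair of groups that does not overlap is IMB and CTRL for miR-194-5p, where the IMB pools, from 5.41 to 5.77, lie above both CTRL pools, at 4.50 and 5.06.

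Between the drugs no member separated. miR-192-5p was lower in IMB than in DOX by a mean difference of -0.24 (SE 0.19, 95% interval -0.72 to 0.25, limma adjusted p = 0.74). IMB pool 1 lay within the DOX range and the other IMB pools below it, with an exact permutation p of 0.2. miR-194-5p differed by 0.21 (SE 0.27, 95% interval -0.46 to 0.88, limma adjusted p = 0.87), and all IMB pools but pool 1 lay within the DOX range. miR-215-5p differed by -0.07 (SE 0.23, 95% interval -0.65 to 0.51, limma adjusted p = 0.999), and all IMB pools lay within the DOX range. Exact permutation p-values were 0.6 for miR-194-5p and 0.8 for miR-215-5p.

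Here too 0 of 3 members passed the limma threshold, where 3 of 294 tested miRNAs did (1.02%) and 32 had an unadjusted p under 0.05. No member had all IMB pools above all DOX pools, as 6.80% of tested miRNAs had, or all below, as 8.16% had. The intervals leave room for differences of either sign, so similar means do not show that the drugs act alike on these miRNAs. The comparisons with CTRL share the same 2 control pools, so they are not independent of each other.

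**Figure D3:**
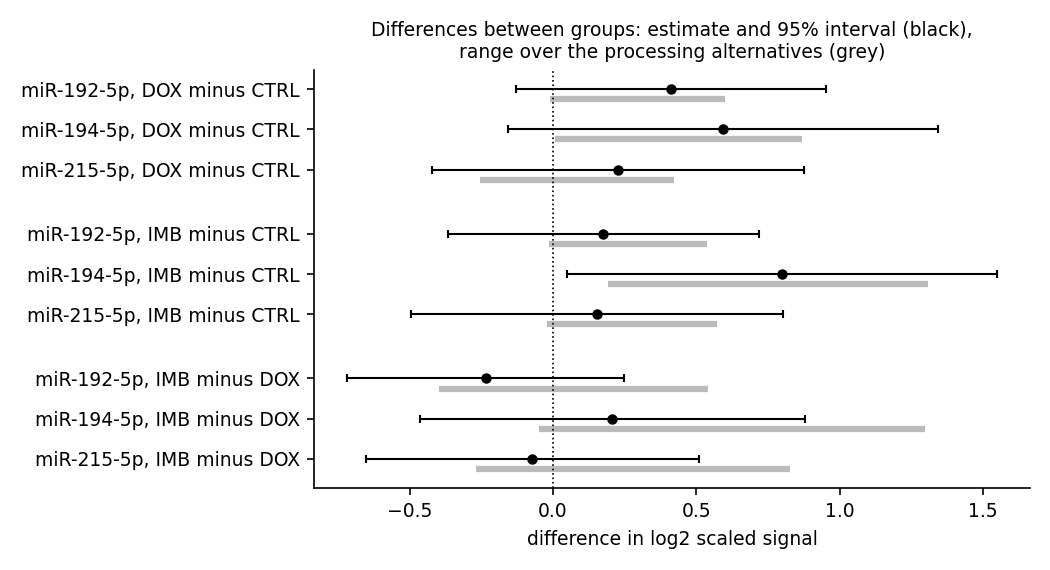
Difference in log2 scaled signal between groups for each member and comparison (horizontal axis), as the estimate with its 95% interval in black and the range over 29 alternatives in grey. The alternatives change the processing, the model or the pools included. The interval lies above 0 only for miR-194-5p in IMB minus CTRL (0.05 to 1.55), while the grey ranges of miR-192-5p and miR-215-5p reach or cross 0 in every comparison.

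The arrays lay in 2 rows of the slide. Row 1 held CTRL pool 1, IMB pool 1 and the DOX pools numbered 1 and 2, and row 2 held the rest. Within rows, where each side has 1 or 2 pools and no test was made, DOX minus CTRL was 0.54 and 0.34 for miR-192-5p, 0.69 and 0.68 for miR-194-5p, and 0.23 and 0.39 for miR-215-5p. The sign was thus the same in both rows. IMB minus CTRL was 0.69 and -0.17 for miR-192-5p, 1.27 and 0.43 for miR-194-5p, and 0.60 and -0.16 for miR-215-5p. Only miR-194-5p kept its sign there. IMB minus DOX changed sign between rows for all 3 members, from 0.15 to -0.52, from 0.58 to -0.25 and from 0.37 to -0.55. With the row as a factor in the fit, miR-194-5p differed by 0.76 in IMB minus CTRL (limma adjusted p = 0.59).

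Differences between members within an array do not depend on a scaling factor common to the array, where no value is at the floor. Quantile normalization does change them. These comparisons were chosen after the values had been seen. The size of such a difference has no meaning of its own, since probes differ in brightness, so only its shift between groups is described. miR-194-5p minus miR-215-5p, from the same chromosome 1 cluster, was -3.33 and -3.13 in CTRL, -2.96, -2.79 and -2.84 in DOX, and -2.67, -2.53 and -2.55 in IMB. The groups did not overlap, with CTRL lowest, DOX between and IMB highest. The means were -3.23 ± 0.15 (SD, n = 2), -2.86 ± 0.09 (SD, n = 3) and -2.58 ± 0.07 (SD, n = 3).

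The shift of miR-194-5p relative to miR-215-5p was 0.37 for DOX minus CTRL, 0.65 for IMB minus CTRL and 0.28 for IMB minus DOX. Each exact permutation p was 0.1, the smallest that 3 pools against 2 or 3 allow, and 0.18 after Benjamini-Hochberg adjustment over the 9 such tests. For 3.41% of the 293 tested miRNAs other than miR-215-5p, miR-194-5p included, every DOX pool exceeded every CTRL pool in the difference from miR-215-5p. The share was 2.73% for IMB above CTRL and 2.39% for IMB above DOX. Leaving out 1 pool at a time gave 0.26 to 0.47, 0.54 to 0.75 and 0.23 to 0.32.

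This shift also rests on the low signals of miR-194-5p, which the higher floor and the normexp offset compress by construction. With the floor 2 times higher it was -0.07, 0.04 and 0.11 for the comparisons in the same order, and the groups overlapped in each. With normexp it was 0.21, 0.25 and 0.04, and only IMB and CTRL stayed apart. The brighter miR-194-5p probe alone gave 0.40, 0.68 and 0.28 without overlap, and the dimmer gave 0.10, 0.31 and 0.20 with overlap. The dimmer probe was raised to the floor in both CTRL pools and DOX pool 1, which compresses its shift as well. The values from the authors' deposited table gave 0.24, 0.59 and 0.35 without overlap. Quantile normalization gave 0.24, 0.64 and 0.41, also without overlap.

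In miR-192-5p minus miR-194-5p, which share the chromosome 19 cluster, miR-194-5p is the term subtracted. A lower value thus means more miR-194-5p relative to its partner, the same direction as against miR-215-5p. The mean of this difference was 4.07 ± 0.12 (SD, n = 2) in CTRL, 3.88 ± 0.25 (SD, n = 3) in DOX and 3.44 ± 0.12 (SD, n = 3) in IMB. IMB lay below CTRL by a difference of -0.62 and below DOX by -0.44, each without overlap (exact permutation p = 0.1, and 0.18 adjusted over the 9 tests). This too rests on the low signals of miR-194-5p, with the same compression under the higher floor, normexp and the floored dimmer probe. IMB minus CTRL was -0.01 with the floor 2 times higher, -0.22 with normexp and -0.28 with the dimmer probe, and IMB minus DOX was -0.27, -0.15 and -0.36. The groups overlapped in each of these except IMB minus DOX with the higher floor. DOX and CTRL overlapped, with a difference of -0.18 (exact permutation p = 0.4). In the difference from miR-192-5p, 2.05% of the other tested miRNAs, miR-194-5p included, had every IMB pool above every CTRL pool, and 11.3% had every IMB pool above every DOX pool.

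miR-192-5p minus miR-215-5p, the pair with the same seed, did not separate the groups. Its mean was 0.83 ± 0.02 (SD, n = 2) in CTRL, 1.02 ± 0.19 (SD, n = 3) in DOX and 0.86 ± 0.05 (SD, n = 3) in IMB. The differences were 0.19 for DOX minus CTRL, 0.02 for IMB minus CTRL and -0.16 for IMB minus DOX (exact permutation p = 0.4, 0.7 and 0.3).

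**Figure D4:**
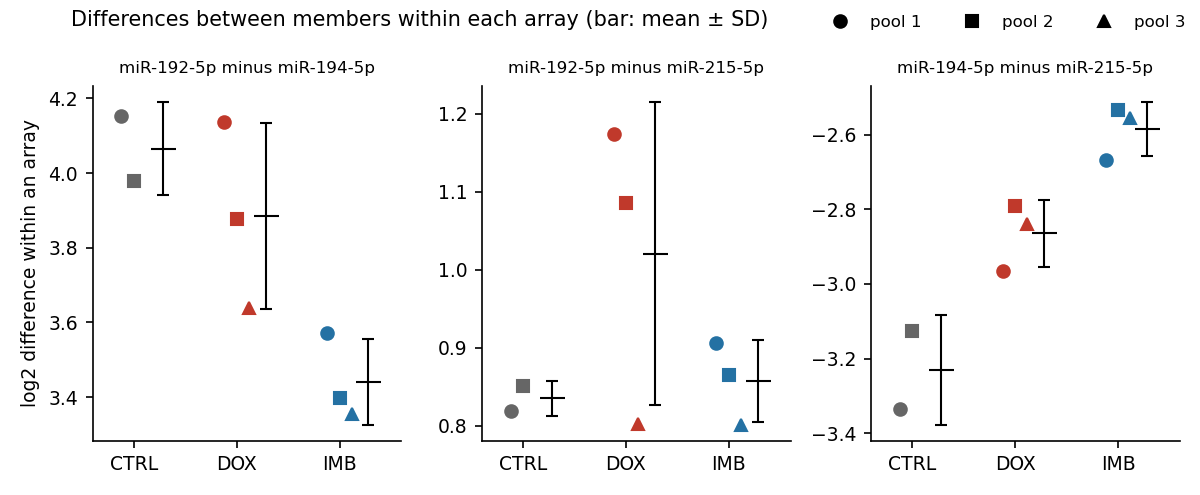
Log2 difference between members within each array (vertical axis, its own range in each panel) by pool, with the group mean ± SD as a bar. In the panel of miR-194-5p minus miR-215-5p the CTRL pools, from -3.33 to -3.13, lie below the DOX pools, which lie below the IMB pools, while the groups overlap for miR-192-5p minus miR-215-5p.

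Over the 8 pools the members varied together. As a description, Pearson's r was 0.87 for miR-192-5p with miR-215-5p (Spearman's rho 0.90), 0.80 for miR-194-5p with miR-215-5p (rho 0.86) and 0.71 for miR-192-5p with miR-194-5p (rho 0.64). These points share the array scaling and hold 3 treatment groups. Without the 2 pools farthest from the median of the first-named member, r was 0.78, 0.60 and 0.38. The last relation thus rests largely on CTRL pool 1 and DOX pool 3.

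The tested miRNAs whose course over the 8 pools was most like that of miR-192-5p, of 291 compared, were miR-5622-3p (r = 0.89), miR-200b-3p (0.88) and miR-429-3p (0.87). The last 2 belong to the miR-200 family of epithelial cells. For miR-194-5p they were miR-652-5p (0.86), miR-5622-3p (0.74) and miR-211-3p (0.71). For miR-215-5p they were miR-141-3p (0.79), also of the miR-200 family, miR-5622-3p (0.78) and miR-362-3p (0.74). miR-141-3p was at the floor on 4 of the 8 arrays, so its correlation rests partly on floored values. Close to the floor were also miR-5622-3p, which read 4.40 to 5.17, and miR-362-3p, whose lowest pool read 4.43. Without the farthest pools, r was 0.87, 0.79 and 0.76 for those of miR-192-5p, 0.67, 0.30 and 0.46 for those of miR-194-5p, and 0.59, 0.83 and 0.88 for those of miR-215-5p.

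Of 15 other miRNAs listed as responsive to p53, 14 were on the array, 8 were detected and 7 were tested, and 1 passed. The median difference of the 7 was -0.08 for DOX minus CTRL, against 0 over all tested miRNAs. Of these, miR-16-5p (-0.44) is also on the red cell list below, and miR-141-3p (0.46) on the epithelial list. The one that passed was miR-34a-5p, a direct p53 target, which read 6.53, 6.81 and 7.04 after DOX. Both CTRL pools were at the floor of 4.39, and of the IMB pools only pool 1, at 4.71, was above it. miR-34a-5p rose with DOX by 2.41 (SE 0.17, limma adjusted p = 0.0043), a value that depends on where the floor is set. Since no other miRNA passed in that comparison, this call was lost with the replicate block, with the red cell index added to the fit, with only the arrays of both groups in the fit and without CTRL pool 1, where 0 passed. It was lower in IMB than in DOX by a difference of -2.30 (limma adjusted p = 0.0015), a call also lost with the red cell index. The members, in contrast, differed from CTRL by 0.23 to 0.59 in DOX. That contrast between miRNAs was not tested.

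The liver-enriched list had 3 tested miRNAs of 8, and 0 passed in any comparison. miR-122-5p, the main hepatocyte miRNA, read 10.48, 10.86 and 10.16 in DOX, 11.22, 10.88 and 9.24 in IMB, and 9.66 and 9.93 in CTRL. All DOX pools lay above both controls, while IMB pool 3 lay below them. The difference from CTRL was 0.70 (SE 0.61) in DOX and 0.65 (SE 0.61) in IMB. Over the 8 pools miR-122-5p correlated with the members at 0.50 (miR-192-5p), 0.37 (miR-194-5p) and 0.26 (miR-215-5p). The list medians were 0.26 for DOX minus CTRL, 0.22 for IMB minus CTRL and -0.04 for IMB minus DOX. Against CTRL, miR-101a-3p went the other way, by -0.08 in DOX and -0.12 in IMB. The summed signal of the list, 3 of whose 7 miRNAs on the array were detected on none, was 957 to 1111 in CTRL, 1302 to 2013 in DOX and 725 to 2574 in IMB. Most of that sum was miR-122-5p, with a mean log2 signal of 10.30, against 5.95 for miR-148a-3p and 5.96 for miR-101a-3p.

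Of the intestinal and other epithelial miRNAs, 7 of 11 were tested and 0 passed. In DOX minus CTRL the difference was above 0 for 7 of 7, with a median of 0.46, against 58.8% of all tested miRNAs and a median of 0. Under the 7 alternatives of signal, background and scaling the count was 5 to 7 of 7, and the median was 0.14 without scaling and 0.37 to 0.49 otherwise. miR-200b-3p differed by 0.57 (SE 0.13), miR-429-3p by 0.60 (SE 0.13) and miR-205-5p, a miRNA of stratified epithelia, by 1.03 (SE 0.28). Their limma adjusted p-values were 0.23, 0.23 and 0.31. miR-203-3p, a miRNA of skin epithelium, differed by 0.09 (SE 0.24). Of the 7, 5 lay above both controls in every DOX pool, against 18.7% of all tested miRNAs, and miR-203-3p and miR-141-3p did not. In IMB minus CTRL the median was 0.09, with 5 of 7 above 0, against 60.9% of all tested miRNAs. In IMB minus DOX it was -0.33, with 0 of 7 above 0, against 41.5%, and with miR-24-3p and miR-23a-3p as the scaling reference it was 0.05. Under 5 of the 7 alternatives 1 of the list passed in that comparison. The summed signal of the list, 3 of whose 11 miRNAs were detected on no array, was 448 to 501 in CTRL, 707 to 770 in DOX and 399 to 570 in IMB. The largest part of that sum was miR-205-5p, with a mean log2 signal of 7.64, against 6.25 for miR-203-3p, the next.

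The kidney-enriched list had 6 tested miRNAs of 9, and 0 passed. Its medians were 0.12 for DOX minus CTRL, 0.08 for IMB minus CTRL and -0.08 for IMB minus DOX, and without scaling they were -0.30, -0.04 and 0.23. With miR-24-3p and miR-23a-3p as the scaling reference they were -0.05, 0.28 and 0.30. The 3 tested muscle miRNAs, of 6 listed, had medians of 1.30, 2.16 and 0.85 in the same order, or 0.80, 1.28 and 0.48 with normexp, and 0 passed. Both CTRL pools were at the floor for miR-1a-3p and miR-133a-3p, so these values depend on where it is set.

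The red cell index, miR-451a minus miR-23a-3p on the log2 scale, was 2.85 ± 0.26 (SD, n = 3) in DOX, 4.09 ± 0.32 (SD, n = 3) in IMB and 3.51 ± 0.47 (SD, n = 2) in CTRL. Most of the signal of the red cell list was miR-451a, with a mean log2 signal of 14.62, against 10.87 for miR-16-5p, the next. The summed signal of the red cell list, 8 miRNAs on the array of which 1 was detected on none, was 19211 to 28542 in DOX, 33247 to 42313 in IMB and 24201 to 39723 in CTRL. Of its 7 tested miRNAs, miR-144-3p, which is transcribed with miR-451a, was higher in IMB than in CTRL by 0.82 (limma adjusted p = 0.0077) and than in DOX by 1.20 (limma adjusted p = 9.0e-04). In IMB minus CTRL, 0 of the 7 passed under each of the 7 alternatives of signal, background and scaling. In IMB minus DOX, 0 passed without scaling or with the index added to the fit. The medians of the list were -0.47 for DOX minus CTRL, 0.06 for IMB minus CTRL and 0.58 for IMB minus DOX.

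The index correlated with the members over the 8 pools at -0.65 for miR-192-5p, -0.07 for miR-194-5p and -0.45 for miR-215-5p. For the log2 75th percentile before scaling, r was -0.61, -0.16 and -0.33 in the same order. Without the farthest pools it was -0.75, -0.66 and -0.36. That percentile was 213 to 267 in DOX, 300 and 349 in CTRL, and 196 to 425 in IMB, and its share in the differences was not tested. With the index added to the fit, DOX minus CTRL was -0.0029, 0.0085 and -0.26 for miR-192-5p, miR-194-5p and miR-215-5p. IMB minus CTRL was then 0.54, 1.31 and 0.57. No member passed the threshold in that fit, and for miR-194-5p in IMB minus CTRL the limma adjusted p was 0.14. Since the index differs between the groups, its share in the differences and that of the drugs cannot be told apart.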

How the data were processed

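The deposited scanner files give linear spot intensity of 1-colour arrays. Per the submitters' processing notes, Agilent Feature Extraction 11.5.1.1 made them. Background was subtracted in the processed intensity and arrays were not scaled to each other, per the file headers. Agilent's total signal per probe carried a factor of 0.212 to the probe's mean processed signal on 6 arrays. The factor was 0.271 on IMB pool 2 and 0.277 on CTRL pool 2, so the processed signal of the spots was used. A table deposited by the authors holds log2 values. How they were made is not given in the sources used, so their scaling and centring are unknown. The column medians of DOX pools 1 to 3 were -3.20, -3.25 and -3.23, those of the IMB pools -3.23, -3.32 and -3.29, and those of the CTRL pools -3.28 and -3.32.

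Spots that were controls or outliers were left out and the rest averaged per probe. A probe was detected where over 50% of its spots were well above background. Scaling used the 75th percentile of the 454 probes that all 8 arrays detected. The mean over a miRNA's probes was floored at 20.9 and put on the log2 scale. There were 0 saturated spots. A miRNA was tested where all arrays of 1 or more groups detected it, which left 294. The fit used R 4.3.3 and limma 3.58.1 (lmFit, eBayes, 2-sided tests, all 8 arrays, 5 residual and 0.605 prior degrees of freedom) and Benjamini-Hochberg adjustment at 0.05. Figures were drawn with matplotlib 3.10.9. The steps were tested on simulated data.

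The members and lists were chosen with earlier results of these data known. Named were the members, their opposite arms, up to 4 detected miRNAs of highest mean signal per list, list members past the threshold, miR-34a-5p, miR-122-5p, miR-451a, and the 3 miRNAs most correlated with each member. Alternatives covered signal, background, scaling, filter, floor, probe, variance model, blocks, the red cell index, the authors' table and leaving out each pool. Those for differences between members were chosen after seeing the data. Normexp used the median spot signal and added an offset of 50.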

Additional observations from a re-analysis of the deposited data

How the results depend on the processing

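Under each of 29 alternatives per comparison, 0 of the 9 differences of the members passed the limma threshold. The sign turned without scaling for DOX minus CTRL of miR-192-5p (-0.010) and miR-215-5p (-0.20) and for IMB minus DOX of both (0.071 and 0.23). It also turned with the red cell index added to the fit for the same results (-0.0029, -0.26, 0.54 and 0.83), and with miR-24-3p and miR-23a-3p as the scaling reference for IMB minus DOX (0.15 and 0.31). IMB minus DOX turned to 0.013 for miR-215-5p with all probes in the percentile and to -0.048 for miR-194-5p with normexp. Without scaling the median of all tested miRNAs was -0.32 for DOX minus CTRL and 0.23 for IMB minus DOX. Leaving out 1 pool gave -0.013 (without CTRL pool 1) to 0.37 for miR-192-5p and -0.020 (without CTRL pool 1) to 0.33 for miR-215-5p in IMB minus CTRL. In IMB minus DOX it gave -0.038 (without DOX pool 1) to 0.39 for miR-194-5p and -0.27 to 0.097 (without DOX pool 3; 0.039 without IMB pool 2) for miR-215-5p. A lone CTRL pool was assumed to vary like the other groups. Within arrays, miR-192-5p minus miR-194-5p in DOX minus CTRL turned to 0.26 with the floor 2 times higher and 0.081 with the dimmer probe, and miR-194-5p minus miR-215-5p to -0.074 with the higher floor. The cause was not tested, except that a higher floor and the normexp offset of 50 compress low signals by construction. So does the main floor for the dimmer probe, which it raised in both CTRL pools and DOX pool 1. Of all tested miRNAs, 1 passed for DOX minus CTRL, against 2 with Agilent's total signal, all probes, a 4 times lower floor or the authors' table, 0 with the replicate block, the covariate or only the 2 groups, and 0 to 2 without 1 pool. For IMB minus CTRL 3 passed, against 1 with Agilent's total signal, normexp, median scaling, quantile normalization, either floor or the authors' table, 0 without scaling, with all probes, the miR-24-3p and miR-23a-3p reference or the covariate, and 0 to 12 (without IMB pool 1) when 1 pool was left out. For IMB minus DOX 3 passed, against 5 with Agilent's total signal, normexp, no filter or the lower floor, 6 with the mean of log2 probe values, 0 with the covariate, and up to 20 without IMB pool 1. Whether the replicate numbers pair the pools could not be decided. Of 7 same-numbered pairs, 2 deviated together (r over 0.1, range -0.24 to 0.40). With so few pools per group the deviations are not independent. Those of the CTRL pools mirror each other, so DOX pool 1 gave r = 0.40 with CTRL pool 1 and -0.40 with CTRL pool 2. With the replicate block miR-194-5p differed by 0.71 in IMB minus CTRL and 0.51 in DOX minus CTRL, and no member passed.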
